A study of Drosophila melanogaster with 2 samples.

Results

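The X chromosome of Drosophila melanogaster carried 830 of the 4594 peaks at which a tagged zinc-finger protein was found in embryos. The members are all the peaks on X in the authors' conservative list, which was made from both replicates and kept by the irreproducible discovery rate (IDR), a measure of how well peak ranks repeat between replicates. A further peak on an unplaced X scaffold is not a member. Peaks were assayed by chromatin immunoprecipitation with sequencing (ChIP-seq), an assay that finds the DNA bound by a protein, with an antibody against GFP. The study has 2 biological replicates of 1 group, whole embryos collected from 0 to 24 h of a CG7372-eGFP strain, and the labels do not say which promoter drives the fusion. CG7372 is named Phs in current annotation. All cell types of these embryos were pooled, and the sex of the embryos was not collected. No untreated or control library was analysed here, and the sequencing depth is unknown because the files hold no read counts.

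The X is the sex chromosome shared by both sexes of the fly: males carry a single copy and females carry a pair. In males the MSL complex and the roX RNAs raise transcription of most X genes, and many of the complex's entry sites hold GA repeats. The X also differs from the autosomes in having more simple repeats and many long genes. For these reasons its peaks are compared here with those on the autosomal arms 2L, 3L and 3R, which held 793, 1031 and 1109 peaks of the same list.

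Sequence at the summits is shown first, to set the strongest X peaks beside the strongest that hold a recurrent word. A set of 3 related 8-base words, CATACGCC, GCGTATAC and CGCATACG, led an earlier search of these peaks on 2L, 3L and 4 and are called the leading words here. The 101 bases centred on a summit, from 50 bp below to 50 bp above, were searched on both strands, and the words can overlap each other. The first 4 sequences below are the strongest X peaks whose window touches no annotated UTR, and they rank 2 to 5 on X by the authors' signal. The other 5 are the strongest X peaks, again outside UTRs, that hold a leading word, which is printed in capitals in either orientation. All are the plus strand of dm6, read 5′ to 3′ from the Release 6 reference.
ph-p, promoter, chrX:2137304-2137404: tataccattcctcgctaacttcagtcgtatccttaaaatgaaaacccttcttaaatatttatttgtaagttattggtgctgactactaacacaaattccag
lncRNA:CR44619, promoter, chrX:12751339-12751439: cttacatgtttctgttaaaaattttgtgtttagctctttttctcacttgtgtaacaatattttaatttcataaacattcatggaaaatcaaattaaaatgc
CG32772, intron, chrX:4910324-4910424: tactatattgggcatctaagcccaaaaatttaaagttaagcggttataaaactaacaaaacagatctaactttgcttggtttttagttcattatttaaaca
CG3726, intron, chrX:5918846-5918946: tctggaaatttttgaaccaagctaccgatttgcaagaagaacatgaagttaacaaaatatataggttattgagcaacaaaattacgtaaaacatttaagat
Ptpmeg2, promoter, chrX:9640986-9641086: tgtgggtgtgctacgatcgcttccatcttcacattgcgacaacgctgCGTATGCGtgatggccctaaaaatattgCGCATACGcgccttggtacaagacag
CG33080, intron, chrX:5716079-5716179: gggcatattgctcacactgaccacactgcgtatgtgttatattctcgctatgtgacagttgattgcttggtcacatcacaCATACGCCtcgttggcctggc
CrebB, intergenic, chrX:18365149-18365249: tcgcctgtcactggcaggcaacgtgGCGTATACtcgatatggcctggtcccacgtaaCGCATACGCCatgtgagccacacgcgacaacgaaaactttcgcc
Hk, intron, chrX:10243016-10243116: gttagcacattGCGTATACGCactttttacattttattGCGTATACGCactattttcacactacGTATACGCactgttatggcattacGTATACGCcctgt
CARPB, intron, chrX:9816213-9816313: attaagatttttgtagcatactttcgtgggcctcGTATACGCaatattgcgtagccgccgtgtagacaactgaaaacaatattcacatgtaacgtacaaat

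The peaks without a word are rich in A and T: the ph-p, lncRNA:CR44619, CG32772 and CG3726 windows held 67.3%, 76.2%, 72.3% and 71.3% A+T. Of the windows with a word, the one at CrebB, which encodes a CREB-family transcription factor, was lowest with 42.6%. The window at Hk, which encodes a potassium channel subunit, held 60.4%, and the one at CARPB was highest with 61.4%. Of the 15 strongest X peaks, 0 held a leading word, and the highest with one, in the promoter of the tyrosine phosphatase gene Ptpmeg2, ranked 19 with a signal of 475. The genes of the 5 word-bearing windows are named for their sequences and were not chosen by the rule for the others. Of the 50 strongest, 3 held one, and of the 100 strongest, 14. Among all X peaks, 126 did (15.2%, 95% Wilson interval 12.9 to 17.8%), against 11 of 1660 windows (0.663%) centred 300 bp to either side of the same summits. Of 3907 windows of the same length on X centred on start sites, 17 (0.435%) held a leading word. In the 126 peaks the nearest word lay a median of 12.5 bp from the summit, and in 82 of them within 20 bp.

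**Figure D1:**
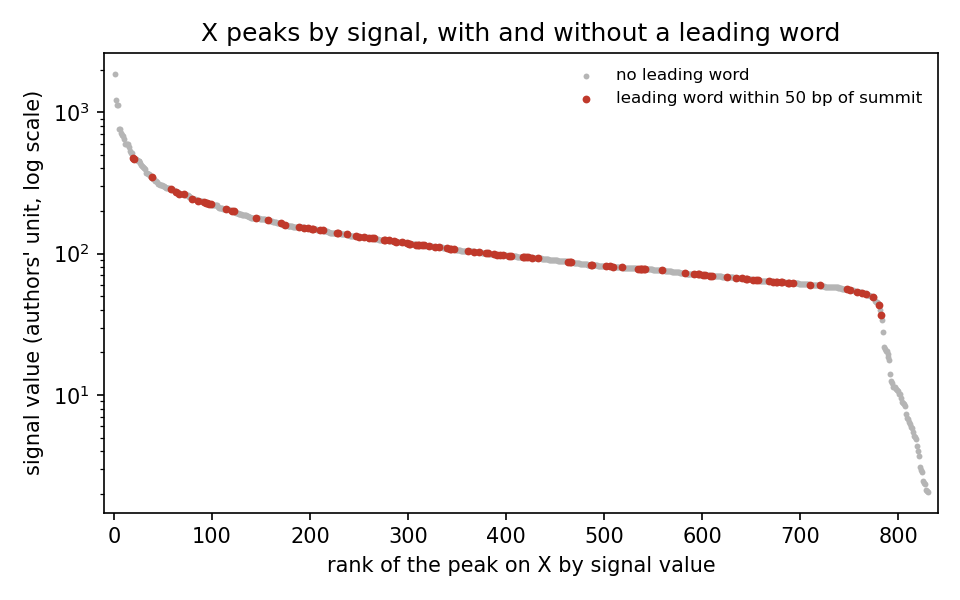
Signal of the 830 X peaks (authors' unit, log scale) against their rank on X, with the 126 peaks that hold a leading word within 50 bp of the summit in red. None of the 15 strongest holds a word, and the first that does ranks 19.

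X peaks held a leading word less often than the peaks of the other arms. The share was 19.5% on 2L, 21.1% on 3L and 22.5% on 3R, or 21.2% on the 3 together. The odds ratio was 0.665 (95% interval 0.540 to 0.820, by Fisher's exact test, with adjusted p = 0.00078 over 8 sets of words). The words were found partly on 2L and 3L, which favours those arms; against 3R alone the odds ratio was 0.616 (adjusted exact p = 0.000377). The difference did not pass among the stronger peaks of the list: for peaks at or above the median signal the shares were 16.4% on X and 17.8% elsewhere (odds ratio 0.913, 95% interval 0.689 to 1.21, adjusted exact p = 0.622). It also missed the threshold in the thresholded lists of replicate 1 (15.1% against 18.5%, adjusted exact p = 0.212) and replicate 2 (17.1% against 18.0%, adjusted p = 0.854).

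The words differed among themselves. CATACGCC was at 42 X summits (5.06%) against 9.75% on the other arms (odds ratio 0.498, adjusted exact p = 8.19e-05). GCGTATAC was at 66 (7.95%) against 9.55% (odds ratio 0.823, adjusted exact p = 0.463). CGCATACG was at 53 (6.39%) against 8.18%, which was not tested alone. CATACGCA, which differs from the first word in its last base and was picked after its values were seen, was at 5.54% of X summits and 4.43% of the others. The words themselves were about as frequent on X as on 2L. They occurred 82.6 times per Mb on X, 83.0 on 2L, 87.8 on 3L and 98.8 on 3R. Of the 1938 places on X, 281 (14.5%) lay under a peak, against 16.0%, 17.9% and 14.96% on 2L, 3L and 3R.

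GA repeats were rare at X summits. GAGAGAGA lay at 3 X summits (0.361%), against 1.81% of their flanks and 0.341% of the summits on the other arms (odds ratio 1.18, 95% interval 0.3504 to 3.96, adjusted exact p = 1). CACACACA lay at 17 X summits (2.05%), also below the 5.24% of the flanks. A run of 8 A was the word with a higher share on X that passed the test, with 9.40% of summits against 6.21% (odds ratio 1.57, adjusted exact p = 0.00755). The X flanks held that run in 11.1% of windows and the flanks of the other arms in 5.27%, so its share at X summits did not stand above the surrounding sequence. The other words did not pass: TATCGATA (DREF and BEAF-32) at 9 X summits, GGTCACAC (M1BP) at 1, CAGGTAG (Zelda) at 3 and TTATATAA at 8, with adjusted exact p of 1, 0.0769, 0.935 and 1. Over all X peaks the summit windows averaged 63.7% A+T and their flanks 57.1%. In X peaks among the strongest 25% of the 4 arms by signal, A+T averaged 66.6% ± 9.38 (SD over 232 peaks), and in those among the weakest 25% it averaged 61.6% ± 10.1 (184 peaks). This rise with signal was not particular to X: on the other arms together the 2 averages were 67.7% and 58.3%.

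The strongest X peaks lay at promoters and in introns. The first was at the start of Ugalt, which encodes a UDP-galactose transporter, with its summit at chrX:2703881, 29 bp upstream of the start site, and a signal of 1866 in the combined list. Its signal was 917 in replicate 1 and 956 in replicate 2, the highest X peak in each case. Next came ph-p, which encodes a subunit of the Polycomb complex PRC1, with a signal of 1212 (639 and 571 in replicates 1 and 2) at chrX:2137354. That summit lay 499 bp upstream of a start site of ph-p, close to the 500 bp limit set for a promoter, and a second ph-p peak, at chrX:2137891, reached 692. The third and fourteenth, with signals of 1127 and 591, flanked the start of lncRNA:CR44619. Also among the 15, Gapdh2, a glyceraldehyde-3-phosphate dehydrogenase gene, had 711 and TRAM, which acts at the translocon of the endoplasmic reticulum, had 644. The promoter peaks of the bZIP factor gene Atf3 and the transporter gene MFS10 reached 597 and 594.

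Introns held 6 of the 15 strongest X peaks. They lay in CG32772 (signal 1117), CG3726 (762), the Tousled-like kinase gene Tlk (756), the phototransduction phospholipase C gene norpA (679), the transcription factor gene NFAT (597) and the forkhead gene CHES-1-like (568, nearest to the start of lncRNA:CR43287). All 15 overlapped a thresholded peak in both replicates, and their signals ran from 286 to 917 in replicate 1 and from 259 to 956 in replicate 2. At the other end of the list, the lowest X signal was 2.07. The X supplied 18 of the 100 strongest peaks of the list (18.0%) and 18.1% of the list as a whole.

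X peaks were found inside introns more often, and between genes less often, than peaks on the autosomal arms. Each summit was given 1 class, first promoter (within 500 bp of a transcription start site, TSS), then exon classes, intron and intergenic. Introns held 415 X peaks (50%, 95% interval 46.6 to 53.4%), against 35.7% on 2L, 35.7% on 3L and 40.6% on 3R. The odds ratio against the 3 arms was 1.66 (95% interval 1.42 to 1.94, by Fisher's exact test, with adjusted p = 1.16e-09 over 7 classes). Intergenic sequence held 82 (9.88%), against 18.2%, 21.0% and 12.7% (odds ratio 0.535, 95% interval 0.418 to 0.684, adjusted exact p = 5.72e-07). Promoters held 308 (37.1%), against 44.0%, 40.4% and 43.3% (odds ratio 0.799, 95% interval 0.682 to 0.937, adjusted exact p = 0.0137). The promoter difference missed the threshold with promoters drawn to 1000 bp (49.3% against 52.4%, adjusted exact p = 0.202). The remaining 25 X peaks lay in 5′ UTRs (7), coding sequence (3), 3′ UTRs (12) and noncoding exons (3), and no test of these classes passed. Peaks of one arm share libraries and are not replicates, so these p-values cover counting error over peaks and not the spread between embryos.

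**Figure D2:**
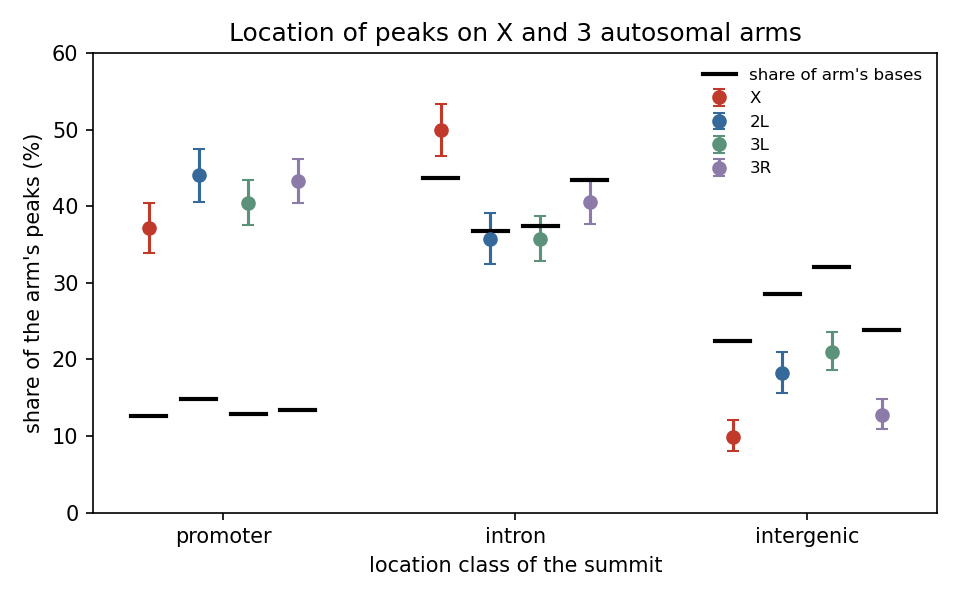
Share of the peaks of X, 2L, 3L and 3R (%) by class of the summit, with 95% Wilson intervals, and black lines for the share of the arm's bases in that class. The X point is the highest for introns, at 50%, and the lowest for promoters and intergenic sequence.

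The base content of the arms differed in the same direction, by less. Introns made up 43.7% of the bases on X, 36.7% on 2L, 37.4% on 3L and 43.4% on 3R. The ratio of peak share to base share in introns was 1.14 on X and 0.971, 0.955 and 0.935 on 2L, 3L and 3R. Against 3R, whose intron content was closest, the X share of intron peaks was 50% to 40.6%. For intergenic sequence the ratio was 0.442 on X and 0.636, 0.655 and 0.532 on the other arms, and for promoters it was 2.94 against 2.96, 3.15 and 3.25. Long genes were more frequent on X: 69 X genes (3.14% of its protein-coding genes) spanned over 50 kb, against 1.99%, 2.30% and 1.84%. Intron peaks on X were not farther from a TSS, with a median distance of 2709 bp against 3806, 3131 and 3400.5 bp.

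The intron peaks of X lay in 214 host genes, 52 of which held 3 or more. The 6 genes with the most, picked after their values were seen, held 8 to 11. CHES-1-like, whose gene spans 27.0 kb, held 11 intron peaks with signals from 50.9 to 568, of which 9 were in both replicates and 0 held a leading word. The adhesion gene kirre, of 394 kb, held 10 with signals from 57.8 to 235. The nuclear receptor gene Hr4 held 9, from 59.5 to 323, and NFAT held 9, from 17.7 to 597. Tlk also held 9, from 74.9 to 756, 8 of them in both replicates. A replicate peak that overlaps several peaks of the list counts for each of them. Thus the Tlk peaks of signal 134 and 74.9 had the same replicate signals, 91.3 and 41.6 in replicates 1 and 2. The kinase gene Raf held 8, up to 400.

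X intron peaks stood apart from the intron peaks of the other arms in strength, in repeat between replicates and in sequence. Of X intron peaks, 23.9% were among the strongest 25% of all peaks of the 4 arms, against 17.3% of other intron peaks (odds ratio 1.49, 95% interval 1.14 to 1.97, by Fisher's exact test, with adjusted p = 0.00933). A thresholded peak in both replicates was present for 49.9% against 38.2% (odds ratio 1.61, adjusted exact p = 0.000266). A leading word was present in 20.2% against 31.7% (odds ratio 0.549, adjusted exact p = 6.2e-05). The same 3 shares of promoter peaks were 37.0% against 33.7%, 57.5% against 55.2%, and 6.49% against 8.91%, with adjusted exact p of 0.355, 0.602 and 0.553. Their odds ratios had 95% intervals of 0.893 to 1.499, 0.851 to 1.41 and 0.444 to 1.18, and whether introns and promoters differ in this was not tested. These splits by class were chosen after the data had been seen.

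**Figure D3:**
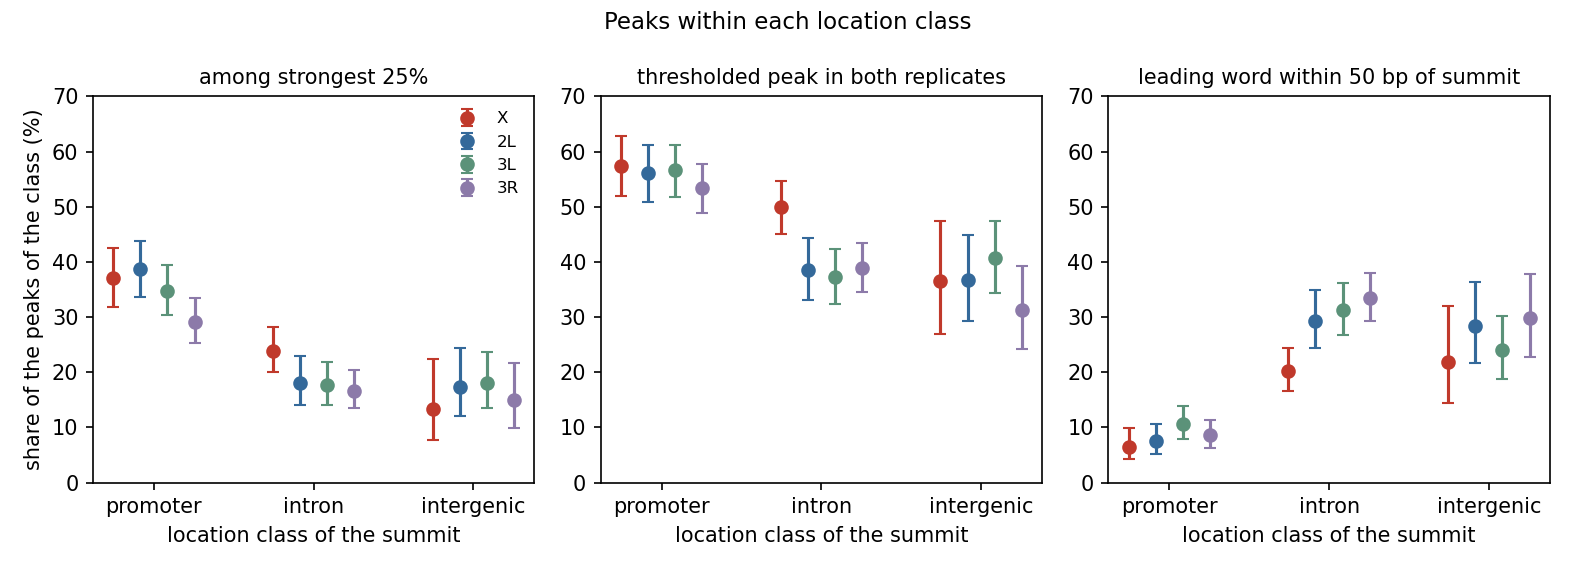
Share of the peaks of each class (%) that were among the strongest 25%, that had a thresholded peak in both replicates and that held a leading word, for X, 2L, 3L and 3R with 95% Wilson intervals. Among intron peaks the X point is highest in the first and second panels, at 23.9% and 49.9%, and lowest in the third, at 20.2%.

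X peaks as a whole had slightly higher signals. Their median was 94.9 (quartiles 68.6 and 147), against 91.5 on 2L, 86.9 on 3L and 84.9 on 3R. In promoters the X median was 110 against 100.1 on the other arms, in introns 93.3 against 81.8 and in intergenic sequence 72.5 against 79.4. Of X peaks 232 (28.0%) were among the strongest 25%, those with a signal of at least 138, against 27.0%, 24.5% and 21.8% (odds ratio 1.22, 95% interval 1.02 to 1.45, adjusted exact p = 0.0366). That call did not hold for the strongest 10% (10.7% against 9.82%, adjusted exact p = 0.541), nor in the lists of replicate 1 (odds ratio 1.05, adjusted p = 0.863) and replicate 2 (1.03, adjusted p = 1).

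Both replicates repeated X peaks more often than those of the other arms. A thresholded peak of both replicates overlapped 425 X peaks (51.2%, 95% interval 47.8 to 54.6%), against 46.2%, 45.7% and 43.9% (odds ratio 1.28, 95% interval 1.09 to 1.49, by Fisher's exact test, with adjusted p = 0.0105). Replicate 1 alone overlapped 102 X peaks, replicate 2 alone 116 and neither 187 (22.5%). Support followed signal: in steps of 25% from the strongest to the weakest it was 99.6%, 67.1%, 14.8% and 8.15% on X and 99.2%, 68.0%, 11.7% and 6.08% on the other arms. Without the strongest 25% of peaks the shares were 32.4% and 27.9% (odds ratio 1.24, adjusted exact p = 0.041), and among peaks at or above the median signal 83.6% and 83.5% (odds ratio 1.00, 95% interval 0.755 to 1.33). Since the list was itself made from both replicates, this support is not independent of how the peaks were chosen. Overlapping peaks of the list can also share 1 replicate peak, so a weak peak can be counted through a stronger neighbour. With overlapping peaks merged the shares were 52.8% and 46.5% (odds ratio 1.29, adjusted exact p = 0.00498). Of the X peaks, 818 overlapped a peak in the ranked lists of both replicates, and across them the signals had a Pearson correlation of 0.949 and a Spearman correlation of 0.746. These describe peaks of the same libraries, which are not independent, and a shared replicate peak enters once for each X peak it overlaps.

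**Figure D4:**
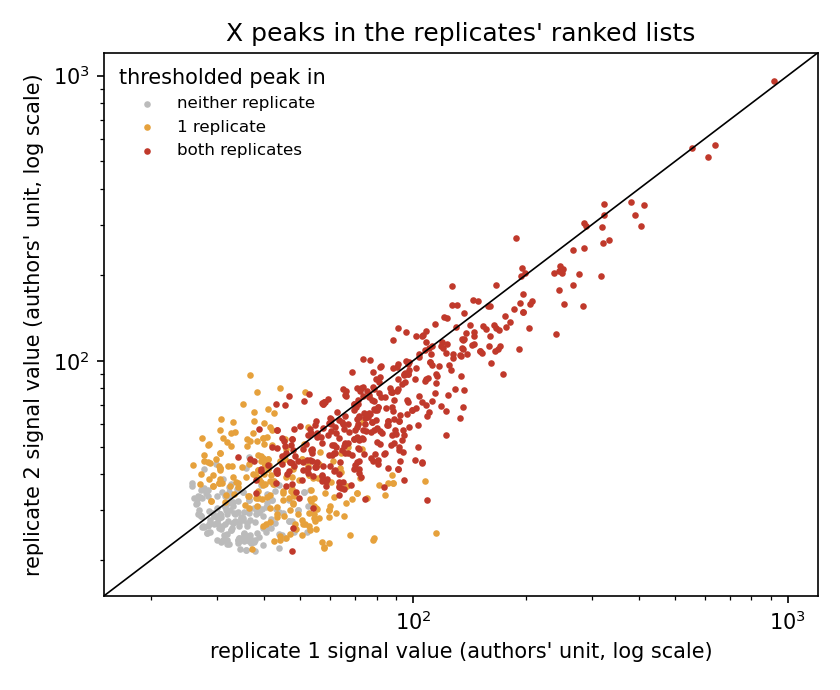
Signal in replicate 2 against signal in replicate 1 (authors' unit, log scales) for the 818 X peaks that overlap a ranked peak of both, coloured by the number of replicates with a thresholded peak; the line marks equal values. The strongest peak lies at 917 and 956, and the peaks in neither thresholded list form a cloud at the low end.

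No difference in peak density between X and the other arms was detectable. X held 35.4 peaks per Mb of known sequence, against 33.7, 36.8 and 34.6 on 2L, 3L and 3R, and the ratio to the 3 together was 1.01 (95% interval 0.931 to 1.09, exact binomial test, p = 0.859). Counted per protein-coding gene, X had more (ratio 1.14, adjusted exact p = 0.00526), and so it had among peaks at or above the median signal (1.14, adjusted p = 0.0435). The unthresholded lists went the other way. X had 345 ranked peaks per Mb in replicate 1 against 431 on the other arms (ratio 0.801) and 379 against 454 in replicate 2 (ratio 0.836). In the ranked list of the series that matches the list used here the gap was smaller, with 637 against 693 per Mb (ratio 0.919). A larger part of the ranked X peaks of each replicate reached its thresholded list: 6.63% in replicate 1, against 4.68%, 5.27% and 4.63% on 2L, 3L and 3R, and 6.43% in replicate 2, against 5.10%, 5.40% and 4.90%. For the matching series list these shares were 5.55% on X and 4.83%, 5.51% and 4.88% on the other arms, so that X and 3L lay close together. The ranked X peaks also had lower median signals, 14.9 against 15.5 to 15.7 in replicate 1 and 11.5 against 12.3 to 12.4 in replicate 2. The part of the X copy number in these differences was not tested.

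Along X the peaks thinned toward the far end of the assembly. The first 12 Mb held 514 peaks and the next 11 Mb 315. Per 1 Mb the number ran from 3 to 60 with a median of 37, and the last whole Mb, at 22 to 23 Mb, held 3. The 2 fullest were the third and the seventh, with 60 each. The longest gap between neighbouring summits, 894383 bp, ran from chrX:21594098 near lncRNA:CR44711 to chrX:22488481 in an intron of l(1)G0196. Long empty stretches were not particular to X. The longest gaps on 2L, 3L and 3R were 313883, 4388267 and 3330629 bp. Of their 1 Mb bins 1, 4 and 3 were empty, and 0 on X. Protein-coding genes numbered 55 and 44 in the last 2 whole Mb and 126 and 111 in the fullest 2.

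X peaks came in close groups more often. A second summit lay within 1000 bp of 209 X peaks (25.2%), against 17.9%, 21.9% and 21.4% on the other arms (odds ratio 1.30, 95% interval 1.08 to 1.55, by Fisher's exact test, with adjusted p = 0.014). At 500 bp (14.7% against 12.8%, adjusted exact p = 0.205) and at 5000 bp (52.4% against 49.0%, adjusted p = 0.105) the difference did not pass. Without replicate 1 or 2 the adjusted exact p was 0.303 and 0.0524. Both peaks of a close pair count, so neighbouring peaks are not independent and these p-values do not allow for that. Runs of 3 or more peaks, each within 1000 bp of the next, numbered 16 on X and 4, 12 and 7 on 2L, 3L and 3R. The longest X run had 5 peaks in an intron of NFAT, between chrX:13640013 and chrX:13641627, with signals from 36.7 to 597, and 4 of them were in both replicates. Another, of 3 peaks, crossed internal start sites of ph-p, downstream of the 5′ end of the gene. Of neighbouring X peaks, 54 pairs overlapped each other, and the 3 closest pairs, with summits 199 bp apart in introns of Appl, CG14441 and NFAT, each joined a peak of signal 59.8 to 71.5 to one of 4.89 to 17.7. X peaks with a close neighbour held a leading word in 5.26% of cases, those without in 18.5%. The direction was the same on 2L, 3L and 3R together, with 14.05% and 23.1%.

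**Figure D5:**
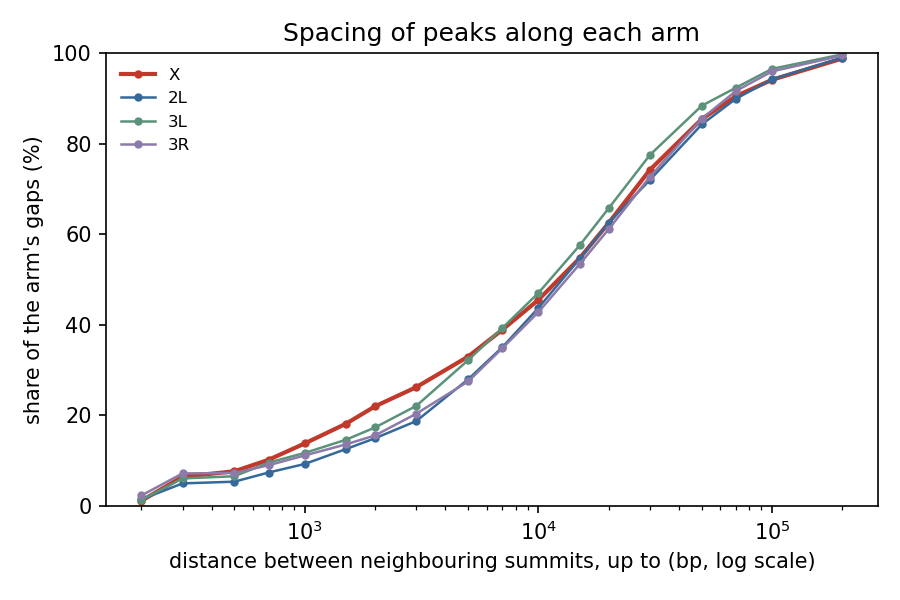
Share of the gaps between neighbouring summits of an arm (%) that are no longer than the distance on the x axis (bp, log scale), for X, 2L, 3L and 3R. The X line lies above the others from 500 to 5000 bp, among them from 7000 to 70000 bp, and just below them at 100000 and 200000 bp.

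A smaller share of X genes than of autosomal genes had a peak at their start. A protein-coding gene counts as bound here when at least 1 summit is no more than 500 bp from 1 of its TSS. Of the 11013 genes on the 4 arms 17.0% were bound, and of the 2196 on X 335 were (15.3%), against 15.8% on 2L, 18.3% on 3L and 18.1% on 3R. The odds ratio was 0.85 (95% interval 0.748 to 0.967, by Fisher's exact test, with adjusted p = 0.0222). Without replicate 2 the adjusted exact p was 0.078. Among divergent genes, those with an opposite protein-coding TSS within 1000 bp upstream, 188 of 783 were bound on X (24.0%) against 28.3%, 34.2% and 34.2% (odds ratio 0.66, 95% interval 0.551 to 0.790, adjusted exact p = 1.87e-05). Other X genes were bound in 10.4% of cases against 8.54%, 9.36% and 8.78% (odds ratio 1.19, 95% interval 0.983 to 1.45, adjusted exact p = 0.0998). This split was chosen after the data had been seen, and the difference between its odds ratios was not tested. A single summit can count for several genes, above all for both genes of a divergent pair. Such genes are not independent, and the p-values and intervals of these gene shares do not allow for that.

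Among the 8 lists of X genes that were counted, ribosomal protein genes had the highest share of bound members and transcription factor and achaete-scute genes the lowest. Of all protein-coding X genes 15.3% were bound. Of 14 genes for cytosolic ribosomal proteins 10 were bound, with summits 3 to 81 bp from the TSS and modest signals from 77.3 to 189. The highest was RpS28b at 189 (90.9 and 94.9 in replicates 1 and 2), followed by RpS5a, RpL22, RpS15Aa, RpL17, RpS19a, RpL36, RpS14b, RpL7A and RpS10b. RpS28b, RpS5a, RpL22, RpL17 and RpS10b had a thresholded peak in both replicates. RpS15Aa, RpS19a, RpL36 and RpS14b had it in 1 replicate, and RpL7A in neither. RpS14a, RpL35, RpL37-1 and RpS6 had no summit within 500 bp. RpS14a and RpS14b are adjacent near-identical copies, so their peak is uncertain. The peaks of RpL22, RpL17, RpL36 and RpS19a also lay within 500 bp of another gene's start.

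Of 13 X-linked transcription factor genes of development, 0 were bound: ct, B-H1, B-H2, oc, btd, exd, ovo, lz, bi, gt, run, Lim1 and vnd. Away from their starts, with up to 500 bp beyond the gene counted, ct, the homeobox gene cut, held 4 peaks with signals up to 103. By that count bi, a T-box gene, held 1 of 138. The achaete-scute genes ac, sc, l(1)sc and ase, which set neural fate, were not bound either (interval 0 to 49.0%). Both intervals include the 15.3% of all protein-coding X genes, so these lists cannot be set apart from that share. In signalling, 1 of 13 was bound (interval 1.37 to 33.3%, which also includes 15.3%). It was sgg, the fly GSK3 kinase gene, with a signal of 256. The others were N, arm, dsh, fu, hop, upd1, upd2, upd3, csw, Dsor1, Raf and shf, none with a summit within 500 bp of a TSS. In the gene or up to 500 bp beyond it, Raf had 10 peaks of any class with signals up to 400. By the same count N, encoding the Notch receptor, had 1 of 153 that lay 27691 bp from its TSS. Of 5 chromatin genes ph-p and the BET-protein gene fs(1)h (77.96) were bound, and ph-d, trr and e(y)3 were not. The interval of the chromatin list, 11.8 to 76.9%, includes 15.3% as well. Of the 2 polyhomeotic copies, ph-p had the second strongest peak of X, and its neighbour ph-d had no summit within 500 bp of a start. This contrast depends in part on the limit. The strongest ph-p summit lay 499 bp from a start and the nearest ph-p summit 87 bp, and the summit nearest to a ph-d start lay 797 bp away. How well reads of the 2 copies can be told apart was not tested.

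Of 8 genes for dosage compensation and sex determination, 1 was bound (12.5%, interval 2.24 to 47.1%, which includes the 15.3% of all protein-coding X genes). It was Sxl, the switch gene of female fate, with a summit 425 bp from a TSS and a signal of 115.1 (72.1 and 38.8 in replicates 1 and 2), thresholded in 1 replicate. The RNA genes roX1 and roX2 had no summit within 500 bp of their TSS. The summit nearest to roX2 lay past the end of the gene, 1433 bp from its TSS, with a signal of 61.5. The histone acetyltransferase gene mof and the counting genes sisA, sc, run and upd1 had none. Nerve cell genes were bound in 5 of 14 cases (35.7%, interval 16.3 to 61.2%). The lower end of that interval lies close to 15.3%, and the difference was not tested. The neuronal RNA-binding gene elav had 518 (317 and 198 in replicates 1 and 2), and dnc, encoding a cAMP phosphodiesterase, had 369. With up to 500 bp beyond the gene counted, dnc held 8 peaks in all. The potassium channel gene Sh (77.7), the innexin gene ogre (71.8) and comt (57.7) were lower, and the comt peak also lay at mew and CG15742. Sh and comt were thresholded in neither replicate. The genes para, cac, eag, Appl, shi, norpA, Inx2, shakB and rut were not bound at a start, though norpA held the intron peak of 679 and para a peak of 200.01 inside the gene. Of 13 classic marker genes car (113) was bound, and y, w, v, f, m, rb, g, r, cv, fw, sn and ras were not. The interval of this list, 1.37 to 33.3%, also includes 15.3%.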

How the data were processed

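ChIP-seq peak lists on dm6 were used, 8 in all: a ranked and a thresholded list for each replicate and pairs for the whole series. Per the file headers, the series lists combine both replicates' alignments and other, unnamed inputs; no aligner or peak caller is named in those sources. The deposited signal of each peak has no stated scale and served to rank and describe peaks within 1 list. The deposited score follows the IDR and was at least 830 in the list used. Depth is unknown. Summits were set against Release 6 and the BDGP6.54 annotation (Ensembl release 115) with Python 3 scripts in NumPy and SciPy.

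Shares on X were compared with those on 2L, 3L and 3R together by two-sided Fisher's exact tests, with 0.5 added to each cell for odds ratios. The Benjamini-Hochberg adjustment was made within 7 classes, 8 word sets and 5 other comparisons. The last adjustment was added later and changed no call under the main settings. Without replicate 2 it moved 2 shares from passing the threshold to missing it. These were close neighbours (Fisher's exact p = 0.0105, adjusted 0.0524) and bound genes (Fisher's exact p = 0.0312, adjusted 0.078). The intron-share comparison was tested on simulated peaks with and without a planted difference, and the other comparisons were not. Several searches for other words in the strongest X peaks gave none reported here.

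The members, lists and tests were chosen with earlier results of these data known. Named genes are those nearest the 15 strongest X peaks, all X-linked list members, the 3 closest pairs and both ends of the longest gap. The genes of the 5 strongest peaks with a leading word and the intron hosts were added later. Alternatives used each replicate's list, the other series list, peaks at or above the median signal, merged peaks and other distances. The gene lists were counted without a test.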

Additional observations from a re-analysis of the deposited data

How the results depend on the processing

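Of 76 alternatives over the 9 comparisons, 53 kept direction and side of the threshold; the higher intron share (odds ratios 1.54 to 2.06) and the lower intergenic share (0.413 to 0.587) held in each one run. The rest differed as follows, and the causes were not tested. Leaving out a replicate gave odds ratios of 1.03 and 1.05 for strong peaks, 1.24 and 1.42 for close neighbours, and 0.783 and 0.945 for leading words; for bound genes the call was lost without replicate 2 (0.85) and held without replicate 1 (0.828). At or above the median signal, density passed the threshold (1.14), while strong peaks (1.03), replicate support (1.00) and leading words (0.913) did not. Density also passed per protein-coding gene (1.14) and per ranked peak (1.10). The promoter share missed it at 1000 bp from a TSS (0.881), the close-neighbour share in the other series list (1.14), at 500 bp (1.17) and at 5000 bp (1.15), and the strong-peak share at the strongest 10% (1.11). Chosen after the data were seen, GCGTATAC alone (0.823) and promoter peaks alone (leading words 0.724, replicate support 1.09, strong peaks 1.16) also missed it, and bound genes that are not divergent turned the direction (1.19, adjusted exact p = 0.0998). No paired analysis was possible because the design has 1 group. Peaks are not independent replicates, and without read counts no depth limit can be given.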
